A study of Neurospora crassa with 94 samples.

Results

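The comparison sets 3 RNA-seq libraries of the triple mutant, labelled as lacking acf, iaf-1 and iaf-2 (genotype acf iaf-1 iaf-2), against 3 libraries of the double mutant labelled as lacking acf and iaf-2 (genotype acf iaf-2). These 6 libraries were taken by genotype label from a series of 94 samples, of which 41 are RNA-seq libraries. The comparison asks what the loss of iaf-1 adds when acf and iaf-2 are already gone. The material was mycelial culture of Neurospora crassa, a filamentous fungus, grown in constant light. Both genotypes belong to library series 118, so called here after the leading number of the library names, and all libraries of that series carry the same batch number, 4, in their titles. Series 118 also held the double mutants acf iaf-1 (3 libraries) and iaf-1 iaf-2 (2), the single mutant isw (3) and wild type (WT, 3). Levels in these groups are given for context. Series 111 supplied iaf-1 and WT (3 libraries each), and series 112 supplied a separate set of triple mutant libraries and acf (3 each). Series 111 also held iaf-2 and acf, and series 112 also held set-7 and WT (3 libraries each). These entered the fits and filters of their series. The labels do not say whether each genotype is 1 strain or several, nor that replicates came from separate cultures, so p-values cover no more than the variation among these libraries, and that variation may be technical.

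ISWI (imitation switch) remodelers use ATP to slide and space nucleosomes, and the ATPase works with accessory subunits such as ACF1. In Neurospora the ATPase is encoded by isw (symbol crf4-1 in the reference), and acf (crf4-2), iaf-1 (NCU00412) and iaf-2 (NCU09388) are labelled here as genes removed alone or together. PRC2 is the enzyme complex that methylates lysine 27 of histone H3, a mark of silent genes, and SET-7 is its catalytic subunit. Mating in Neurospora uses a peptide pheromone of one mating type and a receptor of the other, and vegetative mycelium normally keeps many sexual-cycle genes low.

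The triple mutant libraries held 11711993, 14167328 and 13722454 reads for replicates 1 to 3, and the acf iaf-2 libraries held 18496120, 13297343 and 16182267. The 17 libraries of series 118 ran from 11711993 to 21973649 reads, and the 10 most abundant genes took 13.76% to 17.44% of them. Across all genes, log2(TPM + 1) of 2 triple mutant libraries had a Pearson's r of 0.979 to 0.990, and of 2 acf iaf-2 libraries 0.984 to 0.992. Between a triple mutant and an acf iaf-2 library r was 0.929 to 0.939, and between a triple mutant and an isw library 0.968 to 0.977. TPM is reads per gene scaled for gene length and library total, and levels below are in TPM unless said otherwise. In bulk RNA, fewer cells of a type and less RNA per cell cannot be told apart.

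The deleted genes were read in every library first. NCU00412 (iaf-1) stood at 0.0654, 0.162 and 0.0552 TPM in the triple mutant, against 15.8, 16.9 and 18.7 TPM in acf iaf-2, so the groups were far apart. Its log2 fold change was -4.05 ± 0.13 (SE) on the log2(TPM + 1) scale, 16.6-fold lower (limma adjusted p = 7.34e-13), from 5 reads in the triple mutant and 1052 in acf iaf-2. NCU09388 (iaf-2), removed in both, had 18 reads in the triple mutant and 5 in acf iaf-2, against a mean of 11.6 TPM in WT. Reads of the acf gene crf4-2 were present in both, at 24.0, 27.2 and 29.2 TPM in the triple mutant and 21.3, 28.3 and 24.3 TPM in acf iaf-2, above the WT mean of 14.9 TPM. The sources used here do not give which part of acf was removed. These reads therefore do not check that label, and the acf genotype of both groups rests on the labels. The ATPase gene crf4-1 was 1.32-fold higher in the triple mutant, at 50.7 TPM ± 3.17, than in acf iaf-2, at 38.4 ± 4.43 (SD, n = 3 each; limma adjusted p = 0.0312). That call was lost in 7 of 19 other settings, among them without triple mutant replicate 2 or 3 and without acf iaf-2 replicate 1 or 2.

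A stretch near one end of chromosome IV stood apart in 2 of the 3 triple mutant libraries. The 17 genes from NCU05170 to NCU10038, lying between gene 3 and gene 20 from the end in the gene order of the reference, had 51 reads in triple mutant replicate 1 and 152 in replicate 2, but 12353 in replicate 3. In the acf iaf-2 libraries the same 17 genes had 22525, 20695 and 17453 reads. As CPM, counts scaled to a common library total, this was 4.35, 10.7 and 900 in the triple mutant, against 1220, 1560 and 1080 in acf iaf-2. Every other RNA-seq library, including the 3 triple mutant libraries of series 112 at 773, 900 and 948 CPM, held 729 to 2380 CPM there and a read in all 17 genes. Only 6 of the 17 genes had a read in triple mutant replicate 1 and 13 in replicate 2. The 17 genes include pmb, a permease for basic amino acids, and the catalase gene cat-4, at 0, 0.0450 and 3.08 TPM in the triple mutant against 5.25, 4.42 and 5.69 TPM in acf iaf-2. Whether these 2 libraries lack this stretch of DNA was not tested. The 17 genes were taken as a run of neighbouring tested genes that were each lower at least 2-fold in the comparison, so that was fixed by the choice. The number of genes lower at least 2-fold and their fold sizes are therefore also given without them. Other counts and levels of lower genes include them. NCU05173, gene 23 from that end and outside the stretch, stood at 0, 0.0651 and 0.732 TPM in the triple mutant, against 1.88, 1.42 and 2.19 TPM in acf iaf-2. It was lower too (log2 fold change -1.20, limma adjusted p = 0.000461) and stays in the counts given without the 17 genes. Some values are also given without triple mutant replicates 1 and 2, an alternative chosen after the data had been seen. It leaves 1 triple mutant library, so its tests measure no spread among triple mutant libraries. Only sizes of change are given from it by itself, but ranges and counts over other settings below include it.

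**Figure D1:**
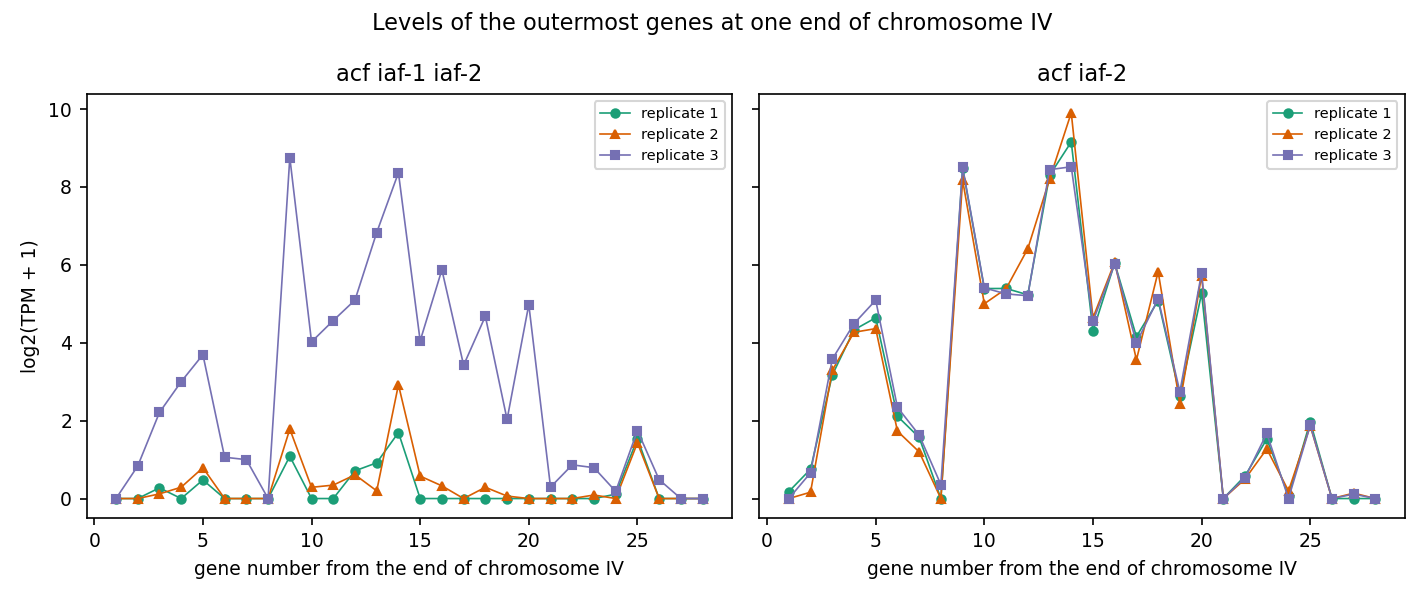
Level, as log2(TPM + 1), of the 28 outermost genes of one end of chromosome IV in gene order, with triple mutant libraries in the left panel and acf iaf-2 libraries in the right, 1 line per replicate. Triple mutant replicates 1 and 2 lie near 0 over most of the 17 genes, with replicate 2 at 6.58 TPM for NCU05165, and replicate 3 lies above both. Summed over the 17 genes replicate 3 held 900 CPM, below the 3 acf iaf-2 libraries at 1080 to 1560 CPM. For NCU05160, at 431 TPM, it lay above all 3.

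Loss of iaf-1 on top of acf and iaf-2 was accompanied by large rises, most often in genes under 1 TPM in WT. Among the largest rises were the pheromone gene mfa-1, which is not silent in WT (mean 22.1 TPM), and a cluster on chromosome IV. Genes of amino acid synthesis, respiratory complex I and carotenoid synthesis were among those that fell. Of 9339 genes tested (at least 1 TPM in at least 2 libraries), 3231 changed (limma, Benjamini-Hochberg adjusted p under 0.05), which is 34.6%. Of these, 1508 (16.1%) were higher and 1723 (18.4%) lower in the triple mutant. At least 2-fold changes ran the other way, with 626 genes (6.7%) higher and 272 (2.91%) lower, or 255 lower without the 17 genes on IV. The higher side also reached further: 219 of the 626 were higher at least 4-fold and 38 at least 16-fold. On the lower side 33 of the 272 passed 4-fold and 4 passed 16-fold, or 19 and 1 of 255 without the 17 genes. Without regard to size, every triple mutant library lay above every acf iaf-2 library for 2124 genes (22.7%) and below for 2443 (26.2%).

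Which direction held the majority of all called genes turned in some settings. With TMM scaling it did not turn, with 1636 genes higher and 1764 lower. With median-ratio scaling 1893 genes were higher and 1476 lower, with edgeR on recovered reads 1855 and 1493, and with DESeq2 1981 and 1532, so higher genes made up 46.7% of calls as tested and 56.2%, 55.4% and 56.4% in these settings. Without triple mutant replicate 1 higher genes made up 51.2% of calls. The excess of higher over lower genes among changes of at least 2-fold held in each of these settings. Without replicates 1 and 2, which leaves 1 triple mutant library, the median log2 fold change over all genes tested was 0.0294, against -0.0445 as tested.

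**Figure D2:**
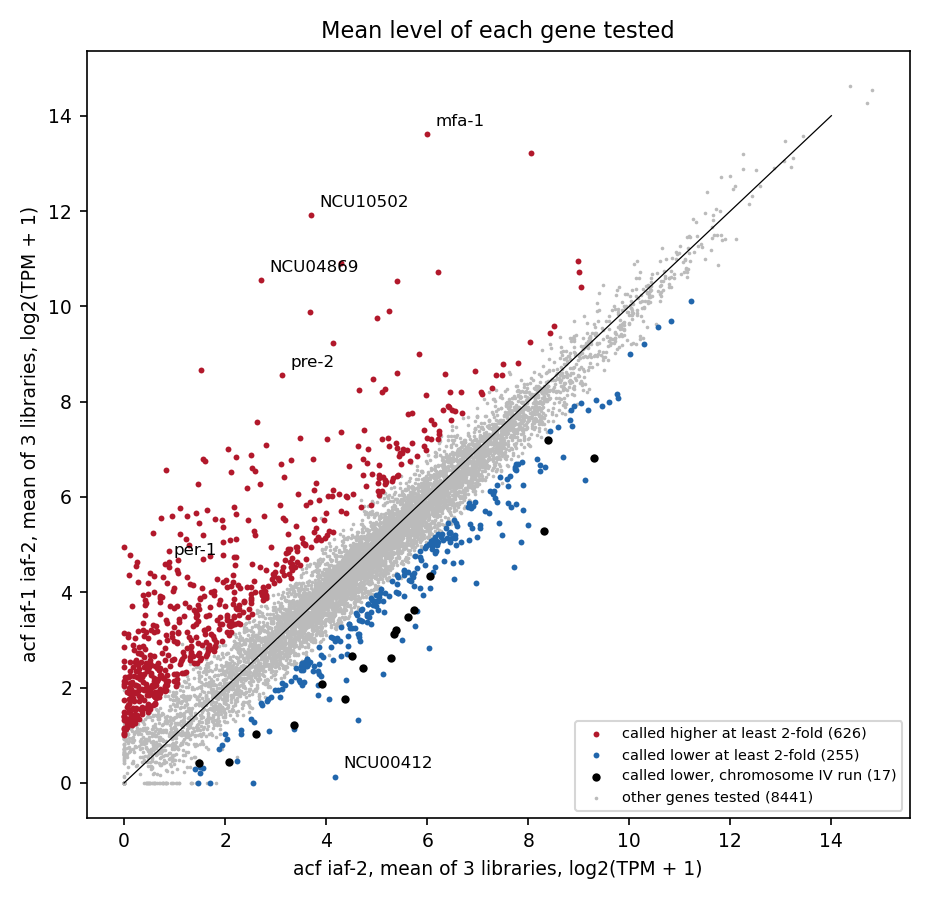
Mean level of each tested gene in the triple mutant (vertical) against acf iaf-2 (horizontal), both as log2(TPM + 1), with genes called higher at least 2-fold in red, lower in blue, the 17 genes of the chromosome IV stretch in black and all other genes in grey. The 626 red points spread far above the diagonal from the low end of the acf iaf-2 axis, while the 255 blue points lie closer to it.

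The 12 genes with the highest fold changes were taken among called genes whose groups do not overlap, so their separation was fixed by the choice. Of these 12, the 2 with a symbol in the reference, mfa-1 and pre-2, act in mating. mfa-1, the pheromone precursor gene of mat a strains, stood at 10751, 18368 and 8434 TPM in the triple mutant, against 136, 23.8 and 28.1 TPM in acf iaf-2. Each triple mutant library was far above each acf iaf-2 library, and acf iaf-2 replicate 1 was the highest of its group. The log2 fold change was 8.00 ± 0.51 (SE), 256-fold (limma adjusted p = 4.84e-08), and 8.79 without acf iaf-2 replicate 1. In the other genotypes mfa-1 averaged 22.4 TPM ± 2.38 in acf iaf-1 (n = 3), 35.5 ± 10.7 in iaf-1 iaf-2 (n = 2), 31025 ± 3628 in isw and 22.1 ± 8.03 in WT (SD, n = 3 each), so of the mutants of series 118 the triple mutant and isw had the high levels. The labels give no mating type. acf iaf-1 had reads of the mating-type gene matA-1 (given below), so for mfa-1 mating type and genotype cannot be told apart there.

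pre-2, which encodes a pheromone receptor, stood at 384, 406 and 340.1 TPM in the triple mutant, against 8.14, 6.14 and 8.85 TPM in acf iaf-2. This was 43.7-fold higher (log2 fold change 5.45 ± 0.19 SE, limma adjusted p = 9.42e-13). per-1, needed for the dark pigment of fruiting bodies, stood at 24.5, 25.7 and 19.7 TPM in the triple mutant, against 0.900, 0.638 and 0.716 TPM in acf iaf-2, 13.8-fold higher (limma adjusted p = 1.82e-11). Both were low in WT, at means of 1.71 and 0.190 TPM. The second receptor gene, pre-1, averaged 3.53 TPM ± 0.527 in the triple mutant and 3.45 ± 0.1 in acf iaf-2 (SD, n = 3 each; limma adjusted p = 0.948). The mating-type gene matA-1 had 3 reads in the triple mutant and none in acf iaf-2, both at or under the floor of 3 reads used here, while acf iaf-1 averaged 47.6 TPM and WT 0.720 TPM.

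The mating pheromone and sexual development list had 16 tested members, of which 7 rose and 2 fell, with a median log2 fold change of 0.36, beside 16.1% higher, 18.4% lower and a median of -0.0445 over all genes tested. Over 20 other settings 5 to 9 members rose and 0 to 2 fell. nox-1, the gene of an NADPH oxidase needed for fruiting bodies, rose to 70.3 TPM ± 3.73 in the triple mutant, against 46.1 ± 0.417 in acf iaf-2 (SD, n = 3 each; limma adjusted p = 0.000429). The rest of the called members are named here after their values were seen. pp-1, a STE12-type transcription factor gene, rose by a log2 fold change of 0.38, asd-4, a GATA-type factor gene, by 0.68, and fsd-1 by 0.34 (limma adjusted p = 0.00882, 0.0202 and 0.0491). nox-2, of a second NADPH oxidase, and asd-1 fell, at log2 fold changes of -0.64 and -0.89 (limma adjusted p = 0.00712 and 0.0202). The fsd-1 call was lost in 10 of 19 other settings. The asd-4 call was lost without triple mutant replicate 2 or 3 or acf iaf-2 replicate 1 or 3, and the asd-1 call without triple mutant replicate 2 or acf iaf-2 replicate 1 or 3.

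The other 10 genes have no symbol in the reference, and 6 of them lie on chromosome IV. NCU10502 stood at 4033, 3999 and 3561 TPM in the triple mutant, against 27.6, 2.27 and 6.2 TPM in acf iaf-2, 440.4-fold higher (log2 fold change 8.78 ± 0.67 SE, limma adjusted p = 4.19e-07). Its log2 fold change was 9.64 without acf iaf-2 replicate 1, the highest of that group, and 8.07 without replicate 2. Its neighbours on either side were high too. NCU10644 stood at 1682, 1705 and 1019 TPM in the triple mutant, against 53.9, 26.7 and 42.7 TPM in acf iaf-2 (35.3-fold), and NCU04879 at 8199, 9141 and 11179.6 TPM, against 295, 329 and 169 TPM (36.9-fold). With NCU04876 and NCU04877 these form a run of 5 neighbouring genes that were all higher at least 2-fold.

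Also on chromosome IV, NCU04869 stood at 1569, 1446 and 1497 TPM in the triple mutant, against 11.8, 1.5 and 3.3 TPM in acf iaf-2, 291-fold higher (limma adjusted p = 3.2e-09), with a log2 fold change of 8.19 and, without acf iaf-2 replicate 1, of 8.84. NCU04867 stood at 395, 397 and 426 TPM in the triple mutant, against 3.75, 1.19 and 0.725 TPM in acf iaf-2, 155-fold higher. NCU08654, on the same chromosome, averaged 110.2 TPM ± 10.2 in the triple mutant and 1.95 ± 0.419 in acf iaf-2 (SD, n = 3 each), 37.8-fold higher. No library of one group reached the range of the other for any of these, as the naming rule required. The remaining genes of the 12 lay on other chromosomes. NCU01298 and NCU07201, both on V, averaged 1925 TPM ± 602 and 947 ± 176 in the triple mutant, against 18.7 ± 8.86 and 11.8 ± 5.38 in acf iaf-2 (SD, n = 3 each), 101-fold and 77.1-fold higher. NCU00370 on III (54.0-fold) and NCU06889 on VII (35.7-fold) were below 3 TPM in every acf iaf-2 library and above 70 in every triple mutant library. Each of the 12 had a limma adjusted p of 4.19e-07 or lower.

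**Figure D3:**
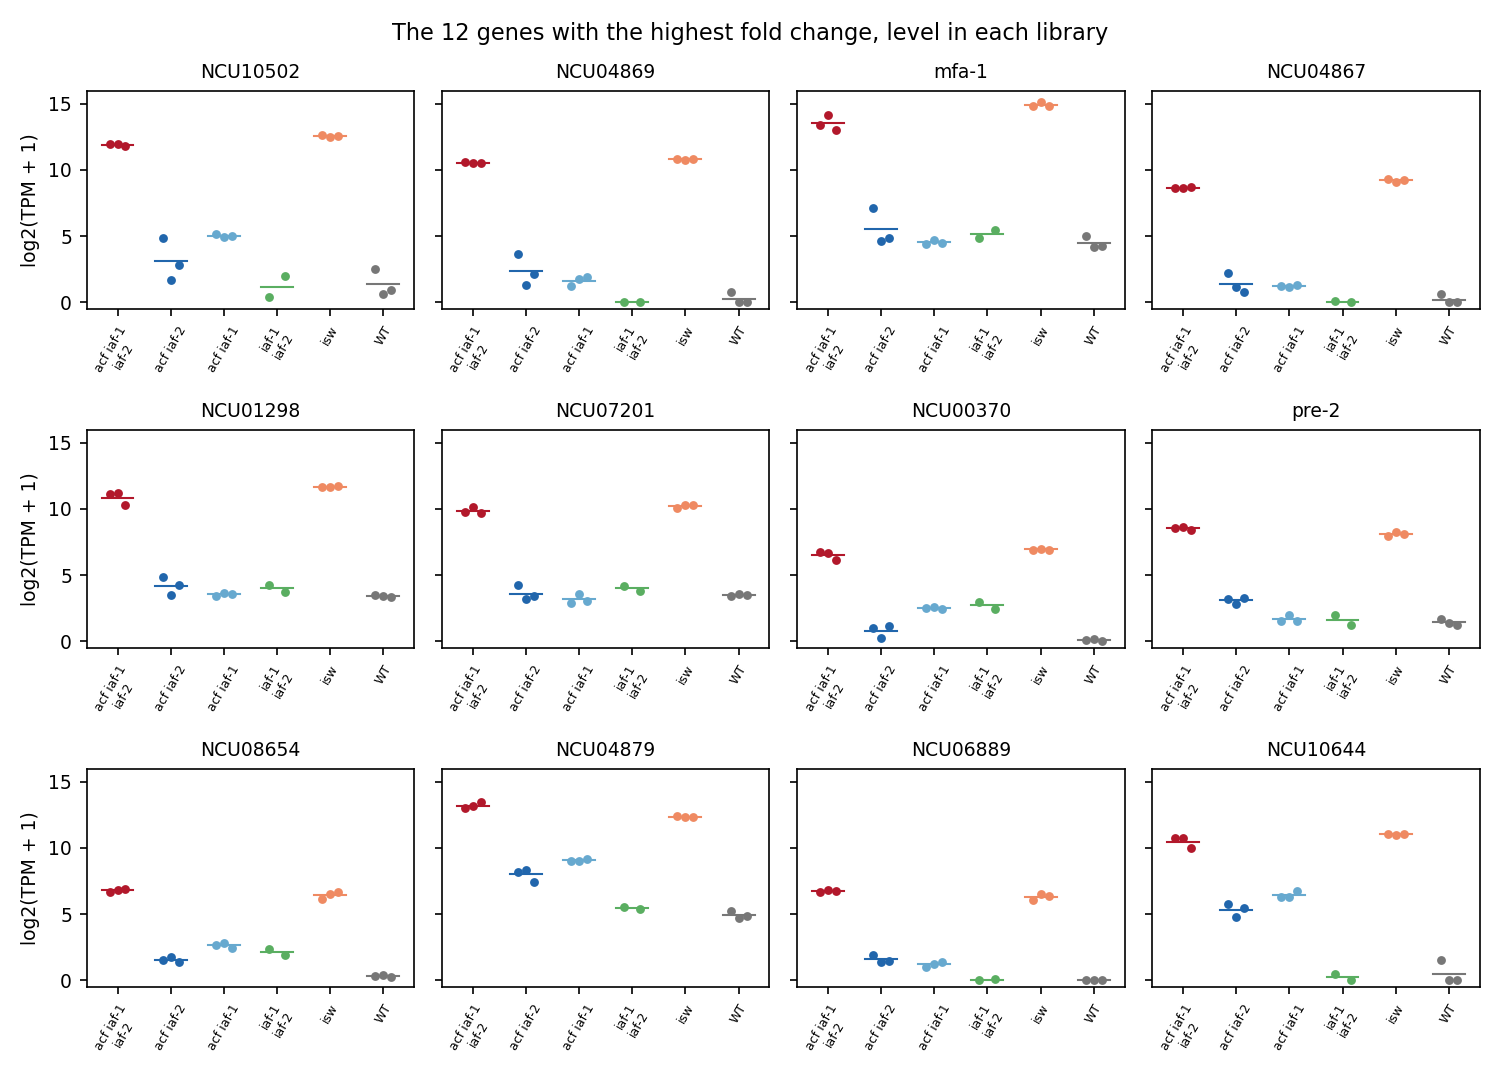
Levels, as log2(TPM + 1), of the 12 genes with the highest fold changes, with 1 point per library and a bar at the mean, in the 6 genotypes of series 118. In each panel the triple mutant and isw points lie far above those of acf iaf-2, acf iaf-1, iaf-1 iaf-2 and WT; for mfa-1 the means are 12518 TPM in the triple mutant, 31025 in isw and 62.6 in acf iaf-2.

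Over the 626 genes called higher at least 2-fold, the median level was 10.5 TPM in the triple mutant and 1.69 TPM in acf iaf-2. It was 1.92 TPM in acf iaf-1, 1.20 in iaf-1 iaf-2, 10.2 in isw and 0.162 in WT. These genes were chosen on the triple mutant and acf iaf-2, so that difference is fixed by the choice. Levels in the other 4 genotypes are no part of the contrast, but all 17 libraries shared its estimate of the spread and its filter; with the 6 libraries alone 616 genes were higher at least 2-fold, 612 of them among the 626. The level was within 2-fold of the triple mutant for 592 of them (94.6%) in isw, beside 97.4% of all genes tested. The same held for 97 (15.5%) in acf iaf-1, 135 (21.6%) in iaf-1 iaf-2 and 15 (2.4%) in WT, beside 88.8%, 83.8% and 80.3% of all genes tested. Each comparison here shares the triple mutant libraries, so these values are given as a description and no test was made. Under 1 TPM in WT stood 440 of the 626 (70.3%), beside 12.4% of all genes tested.

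The 626 genes made up 6.29%, 7.29% and 6.45% of the summed TPM in the triple mutant libraries, against 0.958%, 0.960% and 0.851% in acf iaf-2. In isw they made up 8.58%, 9.04% and 8.45%, and in WT 0.601%, 0.556% and 0.502%. mfa-1 alone carried part of this: without it the share was 5.21%, 5.46% and 5.60% in the triple mutant, 0.944%, 0.958% and 0.849% in acf iaf-2, and 5.64%, 5.52% and 5.60% in isw. The 272 genes called lower at least 2-fold had a median of 15.0 TPM in the triple mutant and 45.4 in acf iaf-2, with 15.8 in isw and 36.5 in WT. Of these 272, 249 (91.5%) were within 2-fold of the triple mutant in isw and 118 (43.4%) in WT, beside 97.4% and 80.3% of all genes tested. In acf iaf-1 it was 123 (45.2%) and in iaf-1 iaf-2 122 (44.9%), beside 88.8% and 83.8% of all genes tested. Their share of TPM was 1.26%, 1.19% and 1.41% in the triple mutant, against 3.58%, 3.03% and 3.36% in acf iaf-2.

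**Figure D4:**
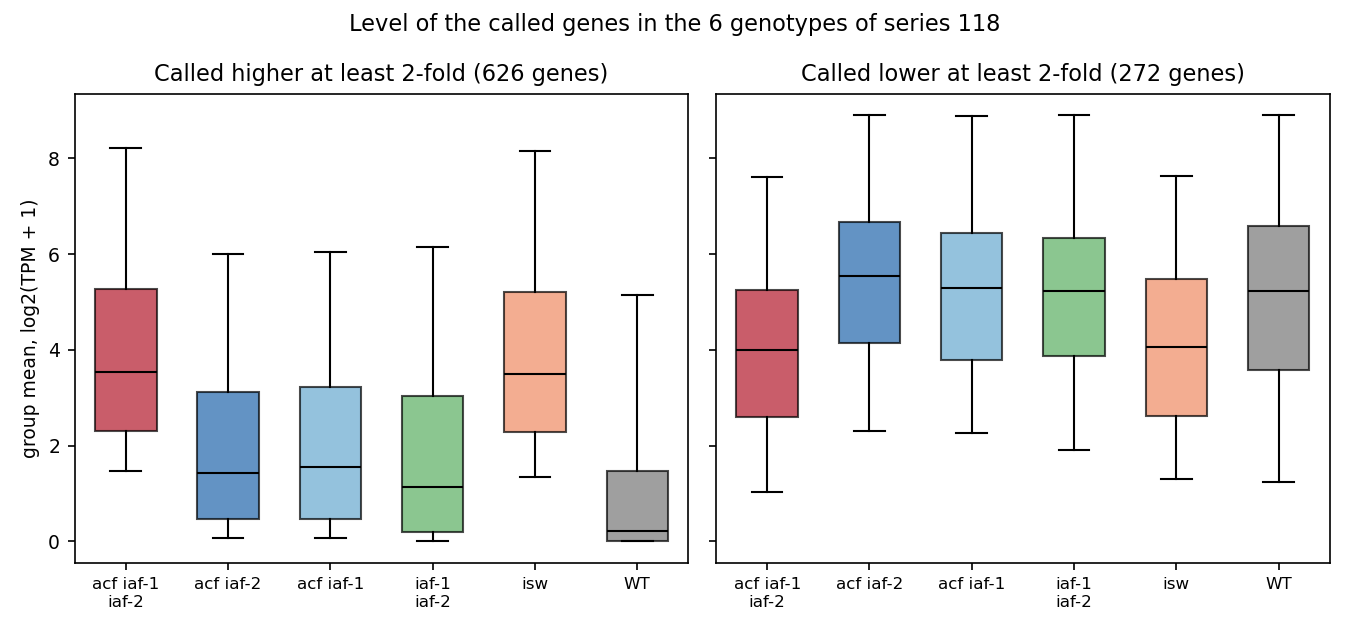
Group mean levels, as log2(TPM + 1), of the 626 genes called higher and the 272 called lower at least 2-fold, in each of the 6 genotypes of series 118 (box, quartiles; line, median; whiskers, 5th to 95th percentile). For the higher genes the boxes of the triple mutant and isw, with medians of 10.5 and 10.2 TPM, sit above that of acf iaf-2 at 1.69 and of WT at 0.162 TPM.

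Split by the mean level in WT, higher genes were most frequent among genes with no read there: 184 of 376 tested (48.9%) were higher at least 2-fold and 2 (0.532%) lower. Of 785 genes above 0 and under 1 TPM in WT, 256 (32.6%) were higher and 10 (1.27%) lower. Among 4783 genes at 10 to under 100 TPM in WT, 60 (1.25%) were higher and 147 (3.07%) lower, and at 100 TPM and above 12 of 1482 (0.81%) were higher and 63 (4.25%) lower. Genes with no or little RNA in WT entered the test only through other libraries of series 118, the triple mutant among them, which favours genes that are high there.

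Of 623 of them with a place in the reference gene order, 282 (45.3%) had another such gene directly next to them in the order of tested genes, beside 11.9% of all 9306 tested genes with a place, and 160 of them fell in 36 runs of at least 3. The longest run, 12 genes from NCU07637 to NCU07648 on chromosome IV, summed to 146, 147 and 140 TPM in the triple mutant, against 10.1, 6.19 and 6.98 TPM in acf iaf-2. In isw the same 12 genes summed to 186, 159 and 185 TPM, and in WT to 0.104, 0 and 0. Their log2 fold changes between the triple mutant and acf iaf-2 ran from 1.54 to 4.32, with NCU07645 at 22.4 TPM ± 0.837 against 0.182 ± 0.156 and NCU07646 at 28.0 ± 6.22 against 0.840 ± 0.530 (SD, n = 3 each). These and the genes named in the next runs were chosen after their values were seen.

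The second run, 11 genes from NCU06953 to NCU12039 on VII, summed to 967, 984 and 877 TPM in the triple mutant, against 188, 161 and 200 TPM in acf iaf-2 and 3.40, 0 and 0.383 in WT. Its most abundant members in the triple mutant were NCU09589, at 308 TPM ± 45.1 against 34.9 ± 7.25 in acf iaf-2, and NCU06953, at 294 ± 16.1 against 86.3 ± 8.74 (SD, n = 3 each). The acf iaf-2 sums already stood above the WT sums here, as they did in the first run and in the third run below. The third, 8 genes from NCU05463 to NCU16540 on II, summed to 424, 396 and 254 TPM in the triple mutant, against 12.1, 12.5 and 11.2 TPM in acf iaf-2 and 3.88, 2.99 and 1.88 in WT. Of the lower genes 56 of 271 (20.7%) had a lower gene next to them, beside 5.51% of the 9306, and the 2 runs of at least 3 held 20 genes, 17 of them the stretch on IV.

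By chromosome, the share of tested genes higher at least 2-fold was 9.80% on IV, 8.78% on VII, 7.52% on V, 6.17% on II, 5.89% on VI, 5.36% on III and 4.48% on I. Among the 50 genes at each chromosome end, 33 of 618 (5.34%) were higher, against 590 of 8688 (6.79%) elsewhere. There 45 of 618 (7.28%) were lower, against 226 (2.6%) elsewhere, and the 17 genes of the IV stretch are among the 45.

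Of the photoreceptor genes, cry was lower. cry, which encodes a cryptochrome, stood at 14.1, 16.6 and 17.2 TPM in the triple mutant, against 60.0, 52.2 and 59.6 TPM in acf iaf-2, with groups well apart. It fell 3.44-fold (log2 fold change -1.78 ± 0.14 SE, limma adjusted p = 5.55e-08), and WT averaged 55.0 TPM. In the photoreceptor and clock list 2 of 10 members rose, 1 fell and the median was -0.15 (over all genes tested 16.1% rose and 18.4% fell). The other 2 calls, fwd-1 and the phytochrome gene phy-2 at log2 fold changes of 0.28 and 0.48 (limma adjusted p = 0.0337 and 0.036), were lost in 7 and 8 of 19 other settings, each without triple mutant replicate 2 or acf iaf-2 replicate 2 among them. The photoreceptor genes wc-1 and wc-2, the clock gene frq and vvd did not pass (limma adjusted p = 0.343, 0.24, 0.0643 and 0.0912).

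Of 7 genes of carotenoid synthesis and blue-light output, 4 fell and none rose, beside 18.4% and 16.1% of all genes tested, with a median of -0.83, and between 3 and 4 fell over 20 other settings. al-1 and al-2, which encode enzymes of carotenoid synthesis, fell to 11.3 TPM ± 1.40 and 241 ± 47.0 in the triple mutant, against 31.8 ± 6.15 and 479.9 ± 37.4 in acf iaf-2 (SD, n = 3 each; limma adjusted p = 1.73e-06 and 7.39e-06). The blue-light-induced genes bli-3 and bli-4 fell 1.78-fold and 3.42-fold (limma adjusted p = 0.00288 and 0.00996). bli-4 varied among the acf iaf-2 libraries, at 101, 24.7 and 70.8 TPM, and its log2 fold change ran from -2.35 to -1.36 over 19 other settings. al-3, cao-2 and ylo-1 did not pass (limma adjusted p = 0.359, 0.333 and 0.646).

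Of 11 conidiation genes 3 rose and 2 fell, beside 16.1% and 18.4% of all genes tested, with a median of -0.0668 that turned positive in some settings (up to 0.0487). con-6, expressed during asexual spore formation, stood at 28.5, 37.1 and 23.7 TPM in the triple mutant, against 10.7, 7.14 and 10.8 TPM in acf iaf-2, 2.92-fold higher (limma adjusted p = 1.61e-05). csp-2 and rca-1 rose 1.48-fold and 1.37-fold (limma adjusted p = 0.0135 and 0.0194). The csp-2 call was lost without triple mutant replicate 2, and the rca-1 call without triple mutant replicate 2 or 3 or acf iaf-2 replicate 1 or 3. chol-1, of choline synthesis, fell 1.73-fold (0.00155), and con-8, named after its values were seen, averaged 283 TPM ± 43.8 in the triple mutant and 863 ± 478 in acf iaf-2 (SD, n = 3 each; 0.0295). The con-8 call was lost without triple mutant replicate 1 or 3 or acf iaf-2 replicate 1 or 3. The 5 markers of asexual spores (con-6, con-8, con-10, con-13 and eas) summed to 423 to 966 TPM per triple mutant library and 475 to 1800 per acf iaf-2 library, with con-13 at 0 reads in acf iaf-2. The 7 markers of sexual tissue (poi-2, fmf-1, asd-1, asd-3, asd-4, app and per-1) summed to 461 to 527 TPM and 455 to 806, with fmf-1 at 0 reads in acf iaf-2. The first set had 1 member higher and 1 lower, and the second 2 higher and 1 lower. Their part in the results was not tested.

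Of 61 amino acid synthesis genes 37 fell and none rose (18.4% and 16.1% of all genes tested), with a median log2 fold change of -0.57, and 22 to 45 fell over the other settings. thr-5, of threonine synthesis, stood at 35.9, 35.6 and 35.1 TPM in the triple mutant, against 80.3, 105 and 94.6 TPM in acf iaf-2, 2.56-fold lower with no overlap (limma adjusted p = 2.82e-07). aro-6, an enzyme gene of the first step to aromatic amino acids, fell 2.17-fold, arg-14, of arginine synthesis, 1.71-fold and his-2, of histidine synthesis, 1.77-fold (limma adjusted p = 1.29e-05, 4.29e-05 and 0.000173). The means of these 4 genes were 93.2, 57.3, 58.8 and 122 TPM in acf iaf-2, beside 105, 57.9, 57.3 and 132 TPM in WT.

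Of 29 genes of respiratory complex I, the NADH dehydrogenase of mitochondria, 18 fell and none rose, beside 18.4% and 16.1% of all genes tested, with a median of -0.42, and 13 to 20 fell over the other settings. All 29 log2 fold changes lay between -0.845 and -0.111. nuo21.3c fell to 198 TPM ± 20.6 in the triple mutant, against 301 ± 12.8 in acf iaf-2, and nuo10.6 to 219 ± 6.55 against 353 ± 24.3 (SD, n = 3 each; limma adjusted p = 0.000153 and 0.000202). nuo14.8 and nuo40 fell 1.80-fold and 1.49-fold. Of 14 vacuolar ATPase genes 5 fell and none rose (median -0.20; same shares of all genes), between 1 and 5 over the other settings; vma-16 fell 1.45-fold, vma-7 1.35-fold and vma-13 1.27-fold (limma adjusted p = 0.000342, 0.00916 and 0.00748). The groups overlapped for vma-11, and its call was lost without triple mutant replicate 1 or 2 or acf iaf-2 replicate 2 or 3. Of 7 cytosolic ribosomal protein genes only crp-4 was called, at 1.23-fold lower (limma adjusted p = 0.05), and it was lost in 18 of 19 other settings, including without any 1 library.

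Nitrogen assimilation genes showed 4 of 10 lower and none higher, beside 18.4% and 16.1% of all genes tested, with a median of -0.36. am, of an NADP-dependent glutamate dehydrogenase, fell to 754 TPM ± 144 in the triple mutant, against 1301 ± 241 in acf iaf-2, and en(am)-2, of glutamate synthase, to 82.6 ± 8.55 against 122 ± 10.6 (SD, n = 3 each; limma adjusted p = 0.00121 and 0.00286). gln-1, of glutamine synthetase, fell 1.40-fold (0.0135, lost without triple mutant replicate 3 or acf iaf-2 replicate 3). nit-3, of nitrate reductase, fell 1.81-fold (0.0465), lost without triple mutant replicate 2 or 3 or acf iaf-2 replicate 2 or 3.

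Heat shock and oxidative stress genes had 5 of 11 members lower and none higher, beside 18.4% and 16.1% of all genes tested, with a median of -0.39, and 2 to 5 fell over the other settings. hsp98, of a protein disaggregase, fell to 68.5 TPM ± 7.94 in the triple mutant, against 119 ± 6.09 in acf iaf-2, and the catalase gene cat-3 to 593 ± 218 against 1129 ± 204 (SD, n = 3 each; limma adjusted p = 0.000217 and 0.0031). grp78, of a chaperone of the endoplasmic reticulum, fell 1.31-fold (0.0149, lost without acf iaf-2 replicate 3). sod-2, of a superoxide dismutase, fell 1.78-fold (0.0272, lost without triple mutant replicate 1 or 3 or acf iaf-2 replicate 1 or 3). In the cellulose utilization list 4 of 15 fell and 1 rose (median -0.0222, positive in some settings, up to 0.0398). cdt-1, a cellodextrin transporter gene, fell 1.68-fold, the transcription factor gene vib-1 1.38-fold and gh61-1 1.58-fold (limma adjusted p = 0.00233, 0.00251 and 0.0129), and gh61-5, at 1.39-fold lower (0.0438), was lost in 13 of 19 other settings, among them without any 1 triple mutant library.

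Of 75 genes of glycoside hydrolases, enzymes that cut sugar polymers, 15 rose and 18 fell, close to the 16.1% and 18.4% of all genes tested, with a median of -0.076. Under median-ratio scaling the counts were 15 and 15. gh35-1 fell to 42.4, 37.6 and 40.0 TPM in the triple mutant, against 149, 114 and 129 TPM in acf iaf-2, 3.20-fold with no overlap (limma adjusted p = 5.65e-08). gh76-1 and gh47-8 rose 2.64-fold and 2.77-fold (limma adjusted p = 9.73e-06 and 1.39e-05), with WT at 0.187 TPM for gh76-1 and no read for gh47-8. gh18-1 stood at 3.18, 2.49 and 1.34 TPM in the triple mutant, against 0.0540, 0.151 and 0.0610 TPM in acf iaf-2 (2.64e-05).

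Among serine-threonine kinase genes, 12 of 53 were higher and 3 lower (16.1% and 18.4% of all genes tested), though the median of 0.0665 fell as low as -0.00414 in other settings. stk-56 stood at 7.51, 8.64 and 6.60 TPM in the triple mutant, against 0.919, 0.732 and 0.667 TPM in acf iaf-2, and stk-35 at 12.0, 13.7 and 10.6 TPM against 3.07, 3.04 and 2.80 TPM. Both had non-overlapping groups and rose 4.83-fold and 3.28-fold (limma adjusted p = 5.53e-08 and 6.75e-07), with WT at 0.176 TPM for stk-56 and no read for stk-35. stk-29 and stk-54 rose 2.02-fold and 1.82-fold (4.97e-05 and 0.00103).

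Called genes of the PRC2, heterochromatin and histone lists changed by less than 2-fold. Of 6 genes of PRC2, EPR-1 and ASH1, 3 rose and none fell (median 0.42), beside 16.1% and 18.4% of all genes tested: set-3, of the ASH1 methyltransferase, and NCU05300, of the EED subunit of PRC2, each rose 1.64-fold, and set-7 rose 1.44-fold (limma adjusted p = 0.00122, 0.00188 and 0.0183). The set-7 call was lost without triple mutant replicate 3 or acf iaf-2 replicate 1 or 2. NCU05460, of SUZ12, and NCU07505, of EPR-1, did not pass (limma adjusted p = 0.24 and 0.234). Of 11 heterochromatin and DNA methylation genes 1 rose: chap, of an AT-hook protein of a histone deacetylase complex, at 24.4 TPM ± 5.28 in the triple mutant against 14.2 ± 1.56 in acf iaf-2 (SD, n = 3 each; limma adjusted p = 0.00329), while the median of 0.0511 ranged down to -0.0136 in other settings. The DNA methyltransferase gene dim-2 and the H3 lysine 9 methyltransferase gene dim-5 did not pass (0.956 and 0.303).

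Of 9 histone genes 3 rose and none fell, with a median of 0.27, again beside 16.1% and 18.4% of all genes tested. hH3 averaged 3968 TPM ± 385 in the triple mutant and 2874 ± 151 in acf iaf-2 (SD, n = 3 each; limma adjusted p = 0.00104). hH4-2 rose 1.28-fold (0.00493), but its reads can be shared with the near-identical hH4-1 gene, which did not pass (0.181). The hH3v call, 1.28-fold higher (0.0414), was lost in 8 of 19 other settings, among them without any 1 acf iaf-2 library and without triple mutant replicate 2 or 3. Of 12 chromatin remodeler genes 3 rose, crf2-1 1.48-fold, crf4-3 1.26-fold and crf4-1 as above (limma adjusted p of the first pair 0.00291 and 0.0274), and crf4-3 was lost without triple mutant replicate 2 or 3 or acf iaf-2 replicate 1. In the ISWI list itself, of 4 genes, 1 rose (crf4-1) and 1 fell (NCU00412, removed in the triple mutant).

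Among 7 tested genes of the genome defence list, 2 rose (16.1% of all genes tested). The list was drawn up for RIP and quelling, but its RIP gene rid was not matched, so it says nothing on RIP. sms-2, of an Argonaute protein that acts in meiotic silencing, stood at 5.92, 6.52 and 5.54 TPM in the triple mutant, against 0.255, 0.445 and 0.324 TPM in acf iaf-2, 5.21-fold higher with no overlap (limma adjusted p = 7.37e-09), and WT averaged 0.0288 TPM. qde-1, of an RNA-dependent RNA polymerase of quelling, rose 1.31-fold (0.0271), lost in 8 of 19 other settings, among them without triple mutant replicate 2 or 3 or acf iaf-2 replicate 1 or 2. Of 26 DNA repair genes 5 rose and 2 fell (median 0.19), beside 16.1% and 18.4% of all genes tested. mus-8, of a RAD6-type ubiquitin-conjugating enzyme, averaged 306 TPM ± 28.7 in the triple mutant and 190.3 ± 18.8 in acf iaf-2 (SD, n = 3 each; limma adjusted p = 9.92e-05), and uvs-2, of a RAD18-type protein, rose 1.54-fold (0.0109). mus-44 rose 1.33-fold (0.0169) and mus-10 fell 1.32-fold (0.0186), both lost in leave-one-out fits, mus-44 without triple mutant replicate 3 or acf iaf-2 replicate 2 or 3 and mus-10 without triple mutant replicate 1 or 2 or acf iaf-2 replicate 2. Of 7 phosphate acquisition genes 1 rose: pho-4, a phosphate permease gene, at 9.76, 8.90 and 24.1 TPM in the triple mutant against 6.10, 7.55 and 3.55 TPM in acf iaf-2. Triple mutant replicate 3 stood apart there, and the call (limma adjusted p = 0.0108) was lost without it or without acf iaf-2 replicate 3.

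**Figure D5:**
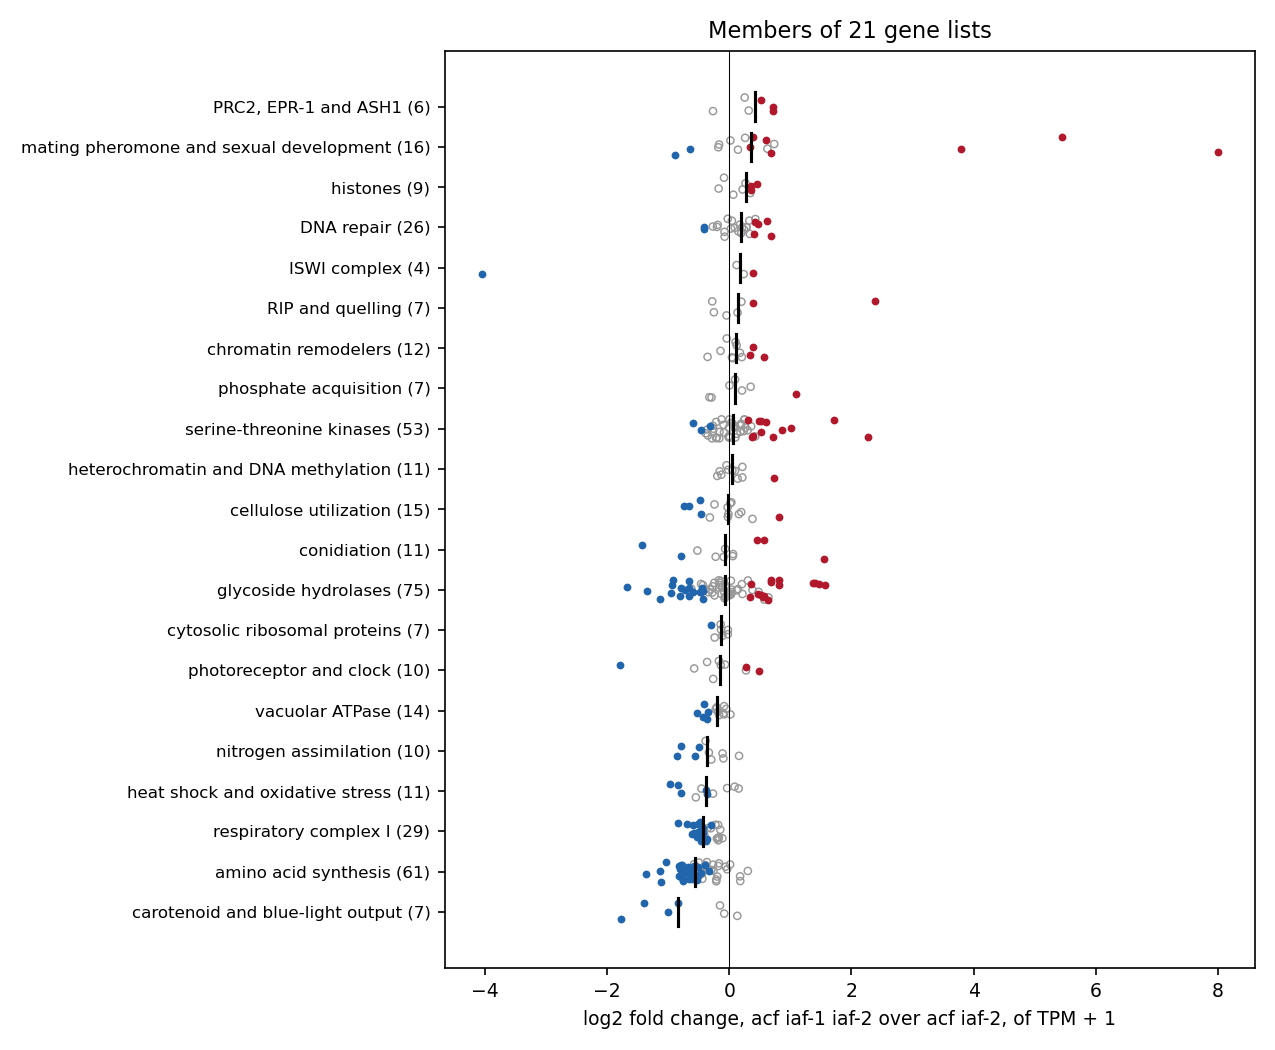
Log2 fold changes (triple mutant over acf iaf-2, on the log2(TPM + 1) scale) of the members of the 21 gene lists, 1 point per gene, red where called higher, blue where called lower and open where not called, with a black bar at each list's median. The medians of amino acid synthesis (-0.57), respiratory complex I (-0.42) and carotenoid and blue-light output (-0.83) lie on the lower side, and mfa-1, at 8.00, is the point furthest to the right.

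The 12 genes with the lowest log2 fold changes were taken among called genes whose groups do not overlap. Of these 12, 9 are on the chromosome IV stretch and 1 is NCU00412 itself. NCU05160 on the stretch, at a log2 fold change of -4.52, was left out by that rule, as triple mutant replicate 3 stood at 431 TPM. NCU05164 stood at 0.889, 0.147 and 113 TPM in the triple mutant, against 313, 292 and 347 TPM in acf iaf-2 (log2 fold change -5.66 ± 1.23 SE, limma adjusted p = 0.00388). Without triple mutant replicates 1 and 2, which leaves 1 library of that group, its log2 fold change was -1.48. Those of NCU05161, NCU05162 and NCU10039 were then -1.24, -0.77 and -1.36. The other 5, NCU05165, NCU16903, NCU05170, pmb and NCU05163, stood at -0.83, -0.17, -0.62, -0.66 and -0.52. As tested with all libraries these 8 stood at -4.86 (NCU05165), -3.98 (NCU16903), -3.94 (NCU05170), -3.83 (NCU05161), -3.71 (NCU05162), -3.69 (pmb), -3.48 (NCU05163) and -3.27 (NCU10039). With only the 2 groups in the fit, NCU05161 and NCU10039 kept their calls and the others of the 9 on the stretch lost theirs. The call of NCU16903 was also lost without triple mutant replicate 1 alone (-2.95) or replicate 2 alone (-3.11). The 9 log2 fold changes ran from -4.80 to -2.72 without triple mutant replicate 1, from -4.44 to -2.71 without replicate 2 and from -7.75 to -4.22 without replicate 3.

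The other 2 of the 12 are NCU05639 on VI and NCU09209 on I. NCU05639 stood at 5.70, 6.54 and 6.06 TPM in the triple mutant, against 70.7, 53.2 and 69.3 TPM in acf iaf-2, 9.15-fold lower with groups far apart (log2 fold change -3.19 ± 0.22 SE, limma adjusted p = 5.95e-09). isw averaged 4.24 TPM and WT 47.8 TPM. NCU09209 stood at 0.872, 1.66 and 1.92 TPM in the triple mutant, against 18.2, 24.8 and 27.9 TPM in acf iaf-2, 9.95-fold lower (log2 fold change -3.32 ± 0.30 SE, limma adjusted p = 4.15e-07), with isw at 1.11 TPM and WT at 52.5 TPM. NCU09968 and NCU09969 on VI had no read in either group, where isw averaged 13.8 and 2.69 TPM and WT 28.3 and 6.14 TPM, so the loss of iaf-1 cannot be read from them.

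Separate libraries of the triple mutant exist in series 112, where the background without iaf-1 loss is not acf iaf-2 but acf alone, so that 2 genes differ and not 1. NCU00412 (iaf-1) stood at 1.83, 0.261 and 0.219 CPM in the triple mutant there, against 13.5, 12.1 and 14.8 CPM in acf. Of 8747 genes 4214 (48.2%) changed (edgeR quasi-likelihood test), 2183 (25%) higher and 2031 (23.2%) lower, with 946 (10.8%) and 478 (5.46%) at least 2-fold. mfa-1 stood at 10553, 10318 and 9029 CPM in the triple mutant, against 7.45, 11.1 and 6.14 CPM in acf, and pre-2 at 216, 199 and 198 CPM against 1.52, 1.53 and 1.80 CPM. cry stood at 43.9, 42.8 and 37.0 CPM in the triple mutant, against 150, 146 and 136 CPM in acf (edgeR log2 fold change -1.71, adjusted p = 4.63e-08). For all 3 the groups lay apart in both series. No libraries are shared between the 2 comparisons. Of the 511 genes higher at least 2-fold here and tested in both, 452 were also called higher at least 2-fold there, which is 88.5% of 511 and 48.1% of the 940 higher there, and 1 was lower by that measure; over all 8719 genes tested in both, 10.8% were higher there. Of 267 lower genes 109 were lower at least 2-fold there, 40.8% of 267 and 22.9% of 476, beside 5.46% of all 8719, and 5 were higher. NCU09209, at an edgeR log2 fold change of -1.87, did not pass in series 112 (adjusted p = 0.141), while NCU05639 did (-2.63, 2.05e-06). Across 8719 genes, which are not independent, the log2 fold changes of the comparisons had a Pearson's r of 0.75 and a Spearman's rho of 0.60.

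Loss of iaf-1 alone, in series 111, was set against WT to ask what it changes when acf and iaf-2 are present. Of 7974 genes tested 2299 (28.8%) changed (edgeR quasi-likelihood test), 1265 (15.9%) higher and 1034 (13%) lower, with 397 (4.98%) and 272 (3.41%) at least 2-fold. That fit and its filter used all genotypes of series 111. With only iaf-1 and WT in the fit, 1640 of 7709 genes were called, 944 higher and 696 lower. NCU00412 had no read in iaf-1 and 1052 in WT. Of the 12 genes with the highest fold changes in the triple mutant, 5 passed the filter of series 111. NCU01298 fell in iaf-1 (edgeR log2 fold change -0.66, adjusted p = 0.00636), and mfa-1, NCU07201 and NCU04879 did not pass the test (0.781, 0.234 and 0.109). NCU10644, with 2 reads in iaf-1 and 2 in WT, was under the floor in both. mfa-1 stood at 6.00, 2.15 and 4.62 CPM in iaf-1, against 3.82, 6.44 and 4.35 CPM in WT, with overlapping groups, and pre-2 had 10 reads in iaf-1 and 19 in WT. NCU10502 had no read in either group. cry was higher, at 42.8, 65.1 and 41.0 CPM in iaf-1 against 38.0, 30.9 and 38.9 CPM in WT (edgeR log2 fold change 0.59, adjusted p = 0.0235). thr-5 did not pass (edgeR adjusted p = 0.958). al-1 fell here as well, to 7.88, 9.92 and 8.40 CPM in iaf-1, against 16.9, 15.9 and 16.2 CPM in WT (edgeR log2 fold change -0.79, adjusted p = 0.00268).

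Within each group of series 111 a pair of libraries was nearly identical, with a chi-square per degree of freedom of 1.53 for iaf-1 replicates 1 and 3 and 1.93 for WT replicates 1 and 3. With each pair summed and counted once, 476 genes were called, 331 higher and 145 lower. Calls of single genes in iaf-1 against WT, among them cry, al-1 and NCU01298, were not repeated in that setting. With the libraries kept apart, the total was 1544 without iaf-1 replicate 2 (662 lower), and 3240 without WT replicate 2. matA-1 had no read in iaf-1 and 368 in WT, and NCU09968 had 2 and 2528, so a difference in strain or mating type cannot be told apart from the loss of iaf-1 in this comparison. Of the 182 genes higher at least 2-fold in the triple mutant against acf iaf-2 and tested in both, 29 were higher at least 2-fold in iaf-1, which is 15.9% of 182 and 7.34% of 395, and 7 were lower by that measure; of all 7959 genes tested in both, 4.96% were higher and 3.42% lower at least 2-fold in iaf-1. Of 253 lower genes 30 were lower at least 2-fold in iaf-1 (11.9% of 253 and 11.0% of 272) and 20 were higher. Across 7959 genes the 2 sets of log2 fold changes had a Pearson's r of 0.11 and a Spearman's rho of 0.0838. Many of the 626 had too few reads in series 111 to be tested.

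Whether the effect of losing iaf-1 differed between the backgrounds was tested as 1 contrast, triple mutant minus acf iaf-2 minus the difference between iaf-1 and WT, on log2(TPM + 1) of both series. Of 9426 genes 2914 (30.9%) differed (limma), 1489 (15.8%) with a more positive effect in the acf iaf-2 background and 1425 (15.1%) with a more negative one. Of the 2914, 381 had no more than 3 reads summed in iaf-1 and no more than 3 in WT, so for them no iaf-1 effect could be measured in WT, and 2533 were above that floor. The total was 1451 with a term for the replicate number and 2212 with the close pairs of series 111 summed. The backgrounds lie in different library series, so background and series cannot be told apart. The same holds for a strain or mating-type difference between iaf-1 and WT. cry differed by -2.25 ± 0.24 (SE) and thr-5 by -1.33 ± 0.19. Neither was repeated with the close pairs of series 111 summed. For mfa-1 the difference was 8.19 ± 0.60 and for pre-2 5.82 ± 0.30. al-1, lower in both, differed by -0.62. These genes were named for their values in the triple mutant and acf iaf-2, so the sizes are a description. Of the 626 genes, 549 (87.7%) had a positive difference, 1 a negative one and 76 were not called; of the 272, 191 (70.2%) had a negative one and 3 a positive one. At that floor in both groups of series 111 stood 315 of the 626 and 8 of the 272. Above it, 239 of 311 had a positive difference and 187 of 264 a negative one. The 626 and 272 were chosen on the triple mutant and acf iaf-2, which are part of this contrast, so these counts describe them and are no separate evidence.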

How the data were processed

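For series 111 and 112 the deposited tables hold raw read counts as whole numbers, and for series 118 the authors deposited TPM only. Per the submitters' processing notes, reads passed through HISAT2 2.1.0, featureCounts (Subread 1.6.2), SAMtools 1.9, Trim Galore 0.4.4 with cutadapt 1.14, and FastQC, with no order stated. The sources used here give no settings, strand option, genome build or annotation, so overlapping genes on opposite strands and near-identical copies are uncertain and no coordinates or sequences are printed. Per the labels' protocols, RNA came from a Trizol extraction with a lithium chloride step, and the library kit was stranded. Not analysed here were 53 ChIP-seq or MNase-seq samples. Of 10397 gene identifiers, 9245 matched the RefSeq table of assembly NC12 by locus tag and 1118 by symbol, and 34 did not match; the table served for symbols and gene order only.

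Series 118 was tested with limma 3.58.1 (trend and robust options, R 4.3.3) on log2(TPM + 1) with all 17 libraries in the fit and a Benjamini-Hochberg threshold of 0.05 over all genes that reached 1 TPM in 2 or more libraries. Fold changes on that scale understate changes of low genes. Deposited TPM were whole multiples of a common step per gene and library (tolerance 0.001), so that whole reads were recovered for all 10397 genes (100%). Library totals, read sums and edgeR and DESeq2 as alternatives rest on these reads; edgeR called 3348 genes. Counts of series 111 and 112 were tested with edgeR 4.0.16 (quasi-likelihood, TMM), with all genotypes of a series in its fit and filter. For the difference between effects, counts of series 111 were converted to TPM with the gene lengths implied by the TPM table. For a group without a read, 3 reads summed over its libraries served as the floor. Such bounds cover counting error only, as the reads carry no molecular identifiers. DESeq2 was 1.42.0, Python 3.11.15, pandas 2.3.3 and scipy 1.17.1. The limma and edgeR fits of series 118, the edgeR fit of series 111 and the fit of the difference were tested on simulated data. The simulated libraries were independent, unlike the close pairs of series 111. DESeq2 and the fit of series 112 were not tested in this way.

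The comparison, the gene lists and the named genes were chosen with earlier results of these data known. The naming rule takes the deleted genes, the 12 highest and 12 lowest log2 fold changes among called genes with a mean of at least 5 TPM in the higher group and groups that do not overlap, up to 4 called members of each of the 21 lists, lowest adjusted p first, and 6 genes given whatever their test: mfa-1, pre-2, per-1, NCU09968, NCU09969 and matA-1. Replicate numbers were not treated as pairs, since same-numbered libraries did not deviate together. Alternatives changed the pseudocount, the filter, the scaling, the tool, the libraries in the fit and single libraries. The closing section gives the effect of a part of them, mainly of those that moved counts.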

Additional observations from a re-analysis of the deposited data

Results flagged for a closer look

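The effect of losing iaf-1 differed between the acf iaf-2 background (series 118) and WT (series 111) for 2914 genes by a test of the difference itself (limma on log2(TPM + 1)). With the nearly identical pairs of series 111 summed, 2212 genes differed. Differences are the triple mutant minus acf iaf-2, minus the change between iaf-1 and WT, on the log2 scale. The background and the library series cannot be told apart. A strain or mating-type difference between iaf-1 and WT of series 111 cannot be told apart from the loss of iaf-1 either. The genes named here were chosen for their values in the triple mutant and acf iaf-2, which are part of this difference, so their sizes are a description and no p is given. Of the 12 genes with the highest fold changes, NCU10502, NCU04869, NCU04867, NCU06889 and NCU10644 had no more than 3 reads in iaf-1 and no more than 3 in WT, so no difference between effects is given for them. Among the others, mfa-1 differed by 8.19 (8.98 without acf iaf-2 replicate 1), NCU01298 by 7.34 and NCU07201 by 6.81. The pheromone receptor gene pre-2 differed by 5.82, NCU00370 by 5.30, NCU08654 by 4.85, NCU04879 by 4.59 and per-1, of fruiting body pigment, by 3.82. Reads in series 111 were few for NCU08654 (5 in iaf-1 and 1 in WT), per-1 (4 and 6), pre-2 (10 and 19) and NCU00370 (13 and 7).

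On the lower side NCU09209 differed by -4.63 (-5.54 without WT replicate 2) and NCU05639 by -2.54. The iaf-1 and WT libraries of series 111 were uneven for NCU09209, at 529.6, 164 and 532 CPM in iaf-1 and 73.9, 571 and 78.0 CPM in WT. The 9 genes of the chromosome IV stretch with few reads in triple mutant replicates 1 and 2 differed as well: NCU05165 by -6.39, NCU05164 by -5.43, NCU05161 by -4.26, NCU05162 by -4.11, NCU16903 by -3.90, NCU05163 by -3.54, NCU10039 by -3.11, pmb by -3.03 and NCU05170 by -2.95. Their differences ran from -5.07 to -2.12 without triple mutant replicate 1, from -5.69 to -2.12 without replicate 2 and from -8.41 to -4.06 without replicate 3. Those of pmb and NCU05170 were no longer called without replicate 1 (-2.20 and -2.12) or without replicate 2 (-2.34 and -2.12).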

How the results depend on the processing

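The ranges when 1 library is left out are, for the triple mutant against acf iaf-2, 2549 to 2941 genes called, 1245 to 1436 higher and 1303 to 1678 lower, and at least 2-fold 615 to 673 higher and 256 to 297 lower. For iaf-1 against WT they are 1544 to 3240 called, 882 to 1751 higher and 662 to 1489 lower, and for the difference between effects 2526 to 3592 genes, 1207 to 2108 positive and 1233 to 1484 negative (lowest positive without WT replicate 3, highest without WT replicate 2). With a pseudocount of 5 TPM, 304 genes were higher and 159 lower at least 2-fold. Without triple mutant replicates 1 and 2 together, 2081 genes were called and 860 were lower. With close pairs of series 111 summed, iaf-1 against WT called 476 genes, 331 higher and 145 lower, and the difference between effects called 2212, 1074 positive and 1138 negative. The cause of these moves was not tested, but the last alternatives use fewer libraries. Same-numbered libraries did not deviate together (correlation of deviations 0.0328, -0.204 and -0.076 for the triple mutant and acf iaf-2, and -0.264, -0.435 and -0.3 for iaf-1 and WT), so the numbers do not pair them. With the replicate block, the triple mutant against acf iaf-2 called 2177 genes, 1112 of them lower, iaf-1 against WT called 379, 269 higher and 110 lower, and the difference called 1451, 781 positive and 670 negative. A term for the range of library numbers left 2955 calls and a term for the 2 styles of column name, added after the data were seen, 3164. Over 102 named genes and up to 19 alternatives each, 1723 of 1921 checks kept direction and side of the threshold, 196 lost the call, 2 gained one and 0 turned direction; for 19 differences it was 316 kept and 26 lost of 342. Depth limits genes with few reads: their TPM change in steps of 1 read.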

Other observations

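Besides the named genes, 2 genes with at least 60 reads in the triple mutant had none in acf iaf-2. NCU02862 on chromosome I had 123 reads in the triple mutant and 0 in acf iaf-2, at least 49.7-fold higher against the floor of 3 reads, with 145 reads in isw and 0 in WT. NCU08252 on chromosome III had 92 reads in the triple mutant and 0 in acf iaf-2, at least 37.2-fold higher, with 195 reads in isw and 0 in WT.

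Other stretches of at least 5 neighbouring genes, each under 5% of the median of the other libraries, occurred in WT and iaf-1 iaf-2 libraries of series 118 and in no acf iaf-2 library. All 3 WT libraries had 1 such stretch of 8 genes on chromosome IV (NCU08838 to NCU16876) and 1 of 10 genes on VI (NCU04703 to NCU14162). The VI stretch takes in NCU04706 to NCU04709, a run called higher at least 2-fold in the triple mutant. Its median level was 46.9 TPM in the triple mutant, 39.7 in isw, 3.09 in acf iaf-2 and 0 in WT. Most of the other libraries are mutants, so genes that are merely low in WT meet this rule. Whether any DNA is missing there was not tested.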
